A study of Homo sapiens with 6 samples.

Results

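SOX9 and 9 other genes of the SOX family (SOX2, SOX4, SOX5, SOX6, SOX8, SOX11, SOX12, SOX13 and SOX15) were followed in VCaP cells after SOX9 knockdown. Their probe sets were those whose gene symbol in the array's annotation was exactly one of these names, 35 of the 54675 on the array. VCaP is a prostate cancer cell line, labelled with the TMPRSS2/ERG genotype in all groups, which places the ETS factor ERG under an androgen-driven promoter. Cells grown in DMEM with 10% serum received SOX9 siRNA A, SOX9 siRNA B or a non-targeting control siRNA, and total RNA was taken 72 h later. Each of the 3 groups held 2 Affymetrix U133 Plus 2.0 arrays, described by the submitters as biological duplicates, 6 in all. No untransfected cells are among these arrays, and all arrays came from 1 cell line. The targeting sequences of the siRNAs were not used here.

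SOX proteins are transcription factors that bind and bend DNA through an HMG box, a domain resembling that of the sex-determining factor SRY. They are sorted into groups by the sequence of that box. SOX2 belongs to group B, SOX4, SOX11 and SOX12 to group C, SOX5, SOX6 and SOX13 to group D, SOX8 and SOX9 to group E, and SOX15 to group G. SOX9 drives cartilage and testis formation and is needed for prostate bud development, and in cartilage it acts together with SOX5 and SOX6. Group D proteins lack a transactivation domain of their own, while the groups C and E carry one.

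The values are MAS5-type signals on a linear scale, 1 per probe set, as deposited. The median signal of an array ran from 21.2 to 26.2. Folds and tests are on the log2(signal + 16) scale, which understates the change of dim probe sets. Only the 27307 probe sets whose mean reached the array-wide median, a signal of 22.0, were tested; that median is called the filter level here. All 9 luminal prostate markers examined passed this level, among them KLK2, a kallikrein under androgen control, at 15122 to 17513, and ERG at 1353 to 2726. Markers of other cells were dimmer than each luminal marker but FOLH1, which read 102 to 202, and some passed the filter level. The brightest of them were CHGA, at 169 to 394.5, and COL1A1. The leukocyte markers PTPRC, CD3E, CD79A and CD14 stayed at or below 50.4 and summed to 56.6 to 114 per array, the endothelial PECAM1 and VWF to 28.9 to 75, and the basal KRT5 and KRT14 to 15.3 to 65.2. Of 5 stromal markers, COL1A1 read 30.9 to 223 and COL1A2, COL3A1, DCN and PDGFRB at most 26.7; their sum was 55.0 to 127 with siRNA A, 255 to 264 with siRNA B and 133 to 164 with control. The neuroendocrine markers CHGA, SYP and ENO2 summed to 289 to 417 in the 4 siRNA arrays and to 460 and 526 in the controls, with CHGA the brightest, and their part in the SOX results was not tested. The number of arrays, 2 per group, limits the precision of every value.

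Of the 35 SOX probe sets, 14 were tested and 21 were below the filter level. The 14 belonged to SOX9 (2 probe sets), SOX4 (4), SOX6 (4), SOX13 (2), SOX12 (1) and SOX15 (1). No probe set of SOX2, SOX5, SOX8 or SOX11 reached it. A change in RNA per cell and a change in the share of cells that took up the siRNA cannot be told apart in these bulk samples.

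The RefSeq promoter table had entries for 6 of the 10 members and none for SOX8, SOX9, SOX11 and SOX15. For each of the 6, the 250 bases before the start are shown, to set the family's promoters side by side, and for SOX6, which had 5 starts, those of the first one listed. Capitals mark CCAAT boxes, the recognition element of the factor NF-Y, and SOX-type elements.
SOX2 (GRCh38.p14, chr3:181711675-181711924, + strand): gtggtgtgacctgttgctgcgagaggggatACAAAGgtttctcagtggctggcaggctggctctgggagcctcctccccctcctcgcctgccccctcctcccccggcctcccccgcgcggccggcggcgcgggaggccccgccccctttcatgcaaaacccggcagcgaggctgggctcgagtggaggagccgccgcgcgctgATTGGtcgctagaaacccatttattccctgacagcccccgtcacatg
SOX4 (GRCh38.p14, chr6:21593501-21593750, + strand): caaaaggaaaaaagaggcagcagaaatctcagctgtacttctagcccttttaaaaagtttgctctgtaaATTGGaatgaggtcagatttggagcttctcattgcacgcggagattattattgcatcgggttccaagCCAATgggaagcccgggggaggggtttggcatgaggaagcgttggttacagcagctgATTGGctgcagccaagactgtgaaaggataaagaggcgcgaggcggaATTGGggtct
SOX5 (GRCh38.p14, chr12:24562492-24562741, - strand): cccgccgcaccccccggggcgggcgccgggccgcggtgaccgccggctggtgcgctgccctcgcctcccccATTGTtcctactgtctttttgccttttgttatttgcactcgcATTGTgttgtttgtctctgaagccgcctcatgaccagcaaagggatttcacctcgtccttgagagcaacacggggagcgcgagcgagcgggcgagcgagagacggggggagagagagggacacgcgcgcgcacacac
SOX6 (GRCh38.p14, chr11:16738478-16738727, - strand): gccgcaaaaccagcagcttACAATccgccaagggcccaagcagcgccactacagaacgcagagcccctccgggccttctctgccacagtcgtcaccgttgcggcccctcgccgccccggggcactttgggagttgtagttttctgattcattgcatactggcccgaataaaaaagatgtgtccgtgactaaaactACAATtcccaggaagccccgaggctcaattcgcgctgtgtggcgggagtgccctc
SOX12 (GRCh38.p14, chr20:325302-325551, + strand): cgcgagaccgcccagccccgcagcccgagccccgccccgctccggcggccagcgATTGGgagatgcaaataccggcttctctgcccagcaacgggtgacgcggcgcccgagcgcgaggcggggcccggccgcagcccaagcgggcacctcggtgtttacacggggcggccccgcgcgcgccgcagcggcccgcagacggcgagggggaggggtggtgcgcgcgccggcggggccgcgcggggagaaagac
SOX13 (GRCh38.p14, chr1:204072865-204073114, + strand): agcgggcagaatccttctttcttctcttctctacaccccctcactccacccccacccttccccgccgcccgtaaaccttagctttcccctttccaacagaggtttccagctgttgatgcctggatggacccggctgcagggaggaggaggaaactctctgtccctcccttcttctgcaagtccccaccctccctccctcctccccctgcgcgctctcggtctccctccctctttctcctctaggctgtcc
The letters searched, on both strands, were ACAAT, the core of SOX sites, ACAAAG, which SOX and TCF/LEF factors can share, and CCAAT. The reverse of the first and the last share 4 letters but were counted apart. ACAAT occurred 2 times in the SOX5 window and 1 or 2 times in each of the 5 SOX6 windows, and ACAAAG 1 time in SOX2 and 2 times in the fifth SOX6 window, which is not printed. The windows of SOX4, SOX12 and SOX13 held neither. Of all 35116 windows of this length, 24.6% held ACAAT and 13.7% ACAAAG. SOX4 had 4 CCAAT boxes, a number reached by 0.874% of windows. SOX2, SOX12 and 3 of the SOX6 windows had 1, and SOX5, SOX13 and the other 2 SOX6 windows had 0, against 32.0% of windows with any. The printed windows ran from 48.8% G and C in SOX4 to 79.2% in SOX12, and the median of all was 58.0%.

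SOX9, the targeted gene, had lower signals in the SOX9 siRNA arrays, most of all with siRNA B. In probe set 202935_s_at the signal was 1469 and 1126 with control siRNA (replicates 1 and 2), 1108 and 673 with siRNA A, and 609 and 334 with siRNA B. In probe set 202936_s_at it was 1558 and 1269.6 with control, 861 and 586 with siRNA A, and 569.8 and 293 with siRNA B. In both probe sets the 4 knockdown arrays were all under the 2 controls, and the siRNA B arrays lay below the siRNA A arrays. The margin was narrow in the first probe set: replicate 1 of siRNA A was 1108 against 1126 for control replicate 2, and they crossed after each of the scalings between arrays that were tried.

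**Figure D1:**
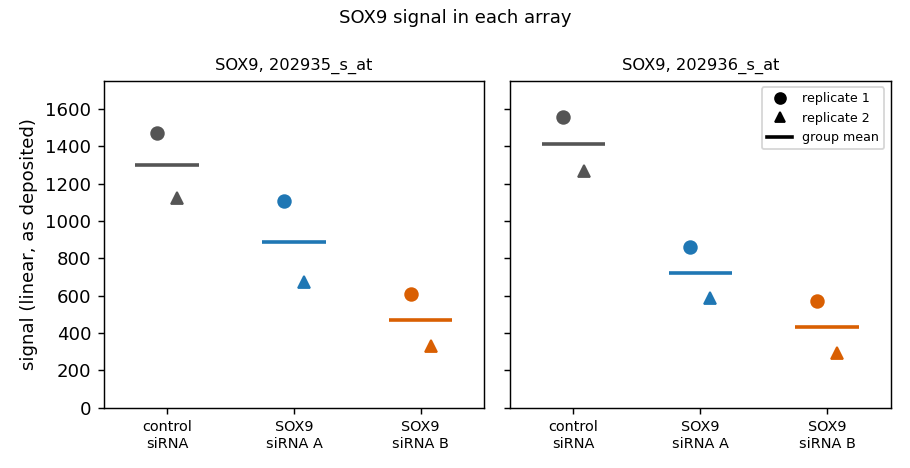
Deposited linear signal of the 2 SOX9 probe sets in each array, with replicate 1 as circles, replicate 2 as triangles and the group mean as a line. In both panels the mean falls from control to siRNA A to siRNA B, and replicate 2 is the lower array of each group.

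As a share of the control mean, the mean SOX9 signal with siRNA A was 68.6% in 202935_s_at and 51.2% in 202936_s_at. With siRNA B it was 36.3% and 30.5%. Single arrays spread widely around these means. In 202935_s_at the shares were 85.4% and 51.8% for replicates 1 and 2 of siRNA A and 47.0% and 25.7% for those of siRNA B. In 202936_s_at the shares were 60.9% and 41.4% for siRNA A and 40.3% and 20.7% for siRNA B. The second probe set thus showed the lower share in each of the 4 arrays.

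Replicate 2 was the lower array in every group, control included. In 202935_s_at it held 60.7% of the replicate 1 signal with siRNA A, 54.7% with siRNA B and 76.6% with control. Set against the control array of the same number, siRNA A left 75.4% of the signal in replicate 1 and 59.7% in replicate 2. For siRNA B these shares were 41.5% and 29.6%. In 202936_s_at they were 55.3% and 46.1% for siRNA A and 36.6% and 23% for siRNA B. Both siRNAs therefore left a smaller share of SOX9 signal in replicate 2 on this reading too.

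For both siRNAs together the log2 fold change of SOX9 was -1.02 (SE 0.29, 95% interval -1.64 to -0.40) in 202935_s_at and -1.36 (SE 0.29, -1.97 to -0.74) in 202936_s_at. Neither passed limma's test across all probe sets (limma adjusted p = 0.571 and 0.328), in which 0.00366% of tested probe sets were called. They ranked at 152 and 24 of 27307 by unadjusted p. A fit that adds the replicate number as a fixed term (the replicate block) called 3.01% of tested probe sets, and both SOX9 probe sets passed in it (limma adjusted p = 0.00141 and 3.25e-06). That fit took the spread from limma's intensity trend alone, so its p-values can be too small. Without replicate 1 of siRNA B, which leaves 1 array with that siRNA, the values were -1.23 and -1.59. With the replicate 2 arrays of siRNA A and B left out together they were -0.64 and -0.99, and 0 of all probe sets were called. With their replicate 1 arrays left out they were -1.41 and -1.72, both called (limma adjusted p = 0.0161 and 0.00363). That fit called 950 of all probe sets, against 1 in the main fit.

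**Figure D2:**
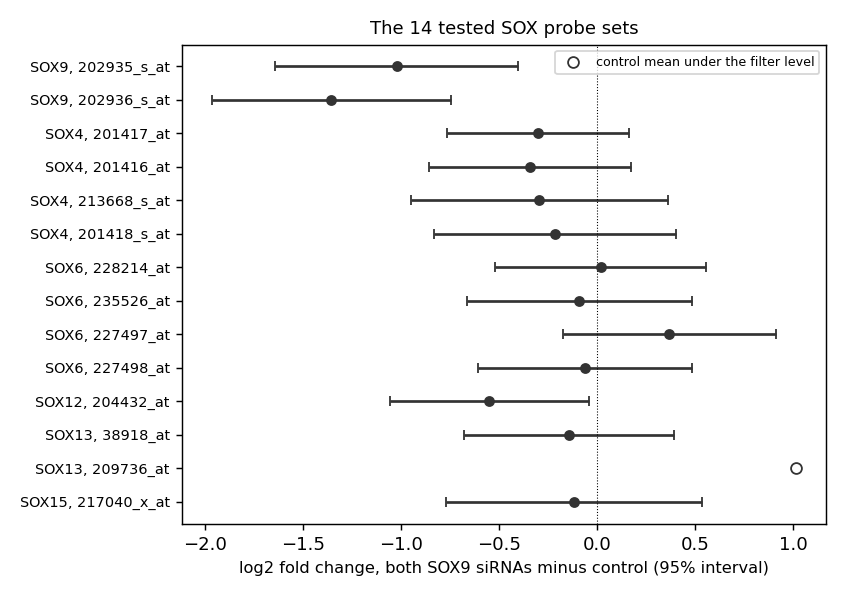
Log2 fold change of each of the 14 tested SOX probe sets, both SOX9 siRNAs minus control, with points for the estimate and bars for limma's 95% interval, unadjusted for the number of probe sets. The intervals of the 2 SOX9 probe sets and of SOX12 lie below 0 and the other 10 drawn span 0, while SOX13 209736_at, whose control mean is under the filter level, is an open point with no interval.

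With siRNA A alone, SOX9 had a log2 fold change of -0.57 (SE 0.33) in 202935_s_at and -0.97 (SE 0.33) in 202936_s_at, neither called (limma adjusted p = 1.00 for both). Here 0.00732% of tested probe sets were called. With the replicate block 1.30% were called, among them 202936_s_at (limma adjusted p = 0.0330) but not 202935_s_at (0.545). The first probe set was at -0.21 without replicate 2 of siRNA A, -0.92 without its replicate 1 and -0.38 without control replicate 1. With siRNA B alone it was -1.48 and the second -1.74 (SE 0.33 each), again not called (limma adjusted p = 0.141 and 0.0858) in a comparison that called 0.0623%. The block, with 5.60% called, passed both (limma adjusted p = 1.01e-05 and 6.44e-08). Without replicate 1 of siRNA B, which leaves 1 array with that siRNA, the values were -1.90 and -2.20. Both comparisons share the control arrays.

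The difference in SOX9 between the siRNAs was tested directly. SOX9 was higher with siRNA A than with siRNA B by 0.91 on the log2 scale (95% interval 0.20 to 1.63) in 202935_s_at and by 0.77 (0.07 to 1.48) in 202936_s_at. Neither passed (limma adjusted p = 0.492 and 0.616, with 0.0476% of tested probe sets called). With the replicate block, which called 2.60%, the first passed (limma adjusted p = 0.0352) and the second did not (0.110). Without replicate 2 of siRNA B the differences were 0.49 and 0.31, and without replicate 1 of siRNA B they were 1.33 and 1.24. Each of these fits leaves 1 array with siRNA B. Replicate 2 of siRNA B is the array with the lowest SOX9.

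SOX4, the group C factor with 4 tested probe sets, was low in replicate 2 of both SOX9 siRNAs and near control in replicate 1 of both. In 201417_at the signal was 5664 and 5541 with control, 5796 and 3365 with siRNA A and 5673 and 3823.5 with siRNA B, in the order of the replicates. In 201416_at it was 3358 and 3357 with control, 3338 and 1807 with siRNA A and 3455 and 2346 with siRNA B. The 213668_s_at signals were 589 and 541, 572 and 360.2, and 672 and 313 in the same order of groups. Those of 201418_s_at were 499 and 468, 515 and 298, and 568 and 335. In all 4 probe sets the replicate 2 siRNA arrays were the lowest of the 6, and the replicate 1 siRNA arrays held between 99.4% and 119% of the control mean. These probe sets read the same gene and are not independent.

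**Figure D3:**
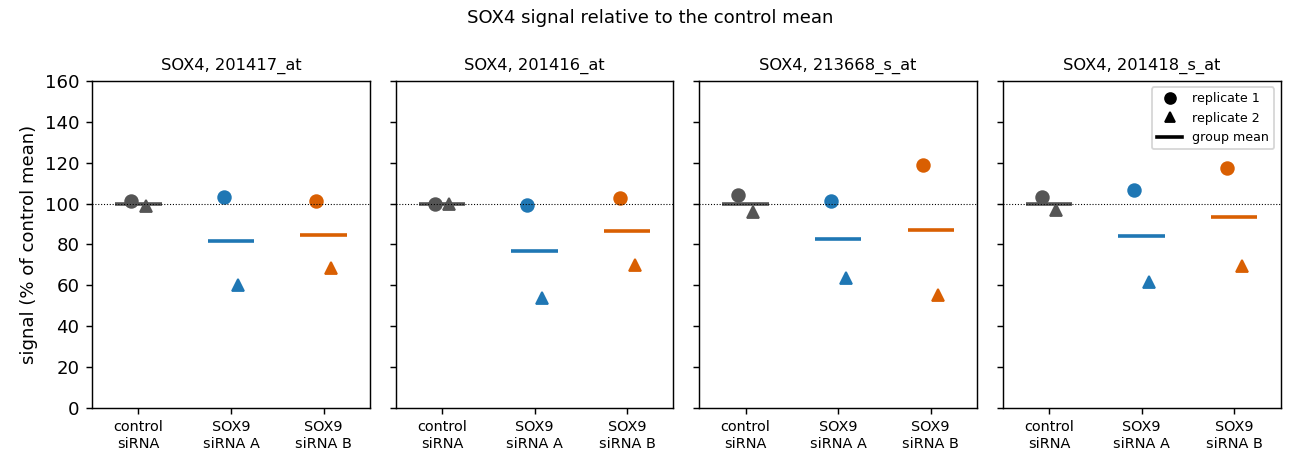
Signal of the 4 tested SOX4 probe sets in each array, as a percentage of the mean of the 2 control arrays, with replicate 1 as circles, replicate 2 as triangles and group means as lines. Replicate 2 of both SOX9 siRNAs lies between 53.8% and 69.9%, and replicate 1 of both between 99.4% and 119%.

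With siRNA A, replicate 2 held from 54.1% to 63.0% of the SOX4 signal of replicate 1 over the 4 probe sets, and with siRNA B from 46.6% to 67.9%. With control it held from 92.0% to 100%. A drop of at least 0.5 on the log2 scale from replicate 1 to replicate 2 with both siRNAs, and of less than 0.5 in either direction with control, was seen in 6 of the 14 tested SOX probe sets, the 4 of SOX4 and the 2 of SOX9. Of all tested probe sets 3.19% met this rule, which was chosen after the SOX4 values had been seen. It rests on 1 array per cell of the design and has no test.

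For both siRNAs against control the log2 fold changes of SOX4 ran from -0.34 to -0.22, and none was called. For 201417_at the value was -0.30 (SE 0.22, 95% interval -0.77 to 0.16, limma adjusted p = 0.845). The value was also not called with the replicate block (0.475). Without replicate 2 of both SOX9 siRNAs, all 4 turned positive, from 0.02 in 201416_at to 0.16 in 201418_s_at. Other genes also set these 2 arrays apart: TCF7L2, a WNT-pathway partner factor, read 989 and 966 with control, 907.5 and 339 with siRNA A and 692 and 431.5 with siRNA B. KLK3, the prostate-specific antigen gene, was lower in replicate 2 of every group, at 1998 and 1295 with control, 2064 and 825 with siRNA A and 1474 and 832.5 with siRNA B. The part of such differences between replicates in the SOX4 values was not tested.

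SOX12, also of group C, was lower in all SOX9 siRNA arrays. Probe set 204432_at read 278 and 267 with control, 216 and 170.4 with siRNA A and 157.5 and 183 with siRNA B. The group means were 272 ± 7.71, 193 ± 32.3 and 170.3 ± 18.1 (SD, n = 2 each). All 4 siRNA arrays lay below both control arrays, and with siRNA B replicate 2 was the higher array, in contrast to SOX4. The log2 fold change for both siRNAs was -0.55 (SE 0.24, 95% interval -1.06 to -0.04) and did not pass (limma adjusted p = 0.706, and 0.252 with the replicate block). It was -0.47 with siRNA A and -0.63 with siRNA B. Leaving out any 1 array kept it between -0.63 and -0.47. The other SOX12 probe set, 228358_at, was below the filter level and read 8.8 to 23, and the median over both probe sets gave -0.15.

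SOX13, a group D factor, gave 2 tested probe sets that went apart. Probe set 209736_at read 7.0 and 19.9 with control, 46.6 and 44.2 with siRNA A and 37.4 and 40.4 with siRNA B. All 4 siRNA arrays were above both control arrays, which were themselves under the filter level of 22.0. It passed the filter only through the siRNA arrays, so its difference is a description, and no test of it is given. Probe set 38918_at read 39.8 and 53.4 with control, 33.4 and 50.8 with siRNA A and 35.9 and 42.7 with siRNA B, and the groups overlapped. The third, 1569111_at, read from 0.70 to 13.4 and was not tested.

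The log2 fold change for both siRNAs was -0.14 in 38918_at (SE 0.25, 95% interval -0.68 to 0.39, limma adjusted p = 0.946). In 209736_at the difference was 1.01 and followed the log offset, at 1.73 with an offset of 1 and 0.46 with an offset of 64, and it was 0.69 without control replicate 1. The 2 probe sets do not give a single value for SOX13.

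**Figure D4:**
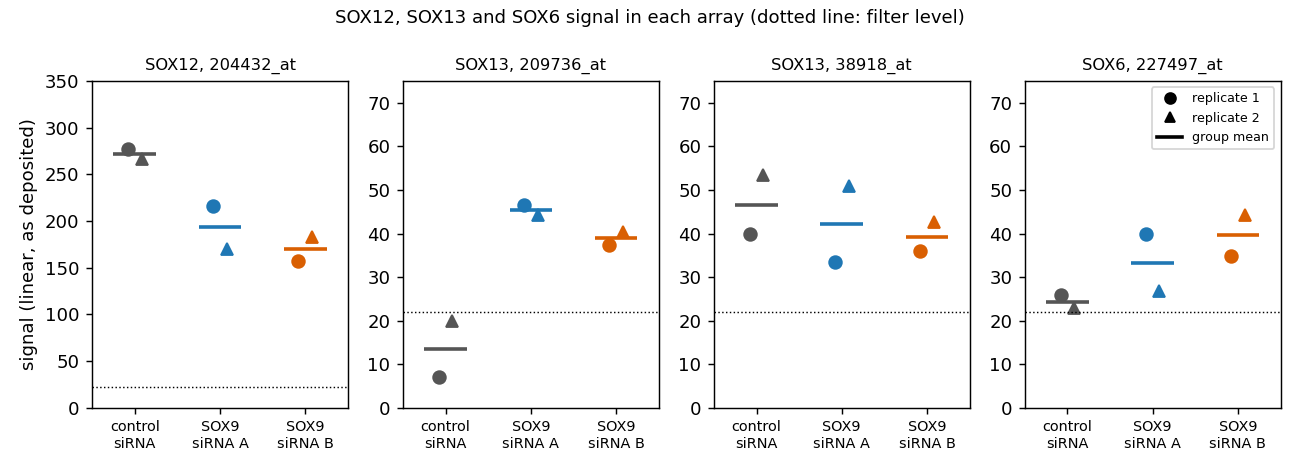
Deposited linear signal of SOX12 204432_at, SOX13 209736_at and 38918_at and SOX6 227497_at in each array, with replicate 1 as circles, replicate 2 as triangles, group means as lines and the filter level of 22.0 dotted. SOX12 lies between 157.5 and 216 with the siRNAs and above 266 with control, and the 2 SOX13 probe sets differ in pattern.

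SOX6, the group D partner of SOX9 in cartilage, had 8 probe sets, of which 4 were tested and lay near the filter level. Their signals ran from 20.5 to 60.3. In 227497_at they were 25.8 and 22.9 with control, 39.8 and 26.7 with siRNA A and 34.9 and 44.2 with siRNA B, so all 4 siRNA arrays were above both control arrays, by little in replicate 2 of siRNA A. The log2 fold change was 0.37 (SE 0.25, 95% interval -0.18 to 0.91, limma adjusted p = 0.836). In 228214_at, 235526_at and 227498_at the groups overlapped, and the values were 0.02, -0.09 and -0.06. Those 3 changed sign on leaving out 1 array. SOX15, of group G, had 1 tested probe set, 217040_x_at, at 49.0 and 43.6 with control, 46.2 and 47.4 with siRNA A and 18.3 and 63.6 with siRNA B. Its log2 fold change was -0.12 (SE 0.31, limma adjusted p = 0.965), with the lowest and the highest array both in siRNA B. The probe set is of a type that can bind related transcripts.

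The remaining genes had only probe sets below the filter level. SOX2, the group B stem cell factor, read from 1.00 to 29.1 over 4 probe sets, and SOX5 from 0.50 to 35.6 over 4. SOX8, the group E relative of SOX9, read 2.30 and 0.50 with control, 1.00 and 1.30 with siRNA A and 15.8 and 0.80 with siRNA B. Its highest value came from 1 array only, replicate 1 of siRNA B. SOX11, of group C, read from 3.30 to 31.9 over 3 probe sets, and in 204913_s_at all 4 siRNA arrays (10.2 to 17.8) were below both control arrays (26.7 and 22.0). Among tested probe sets 10.9% had that order, and this one was not tested. In 204915_s_at and 204914_s_at the groups overlapped, and replicate 1 of siRNA A, at 31.9 and 28.5, was above both controls. Of the 126 signals in the 21 untested probe sets, 114 were under 22.0. Whether a signal this low is expression or background cannot be read from these values.

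The counts that follow leave out SOX13 209736_at, since its control arrays were under the filter level, and cover the other 13 tested SOX probe sets. For both siRNAs 0 of the 13 were called by limma, against 0.00366% of all tested, and 3 had an unadjusted p below 0.05, the 2 of SOX9 and SOX12 204432_at, against 6.90% of all. For siRNA A, siRNA B and siRNA A against siRNA B, 0, 0 and 0 were called by limma, with 1, 3 and 2 at an unadjusted p below 0.05 (3.86%, 10.3% and 7.48% of all). With the replicate block 2, 1, 2 and 1 were called in the 4 comparisons, each of them a SOX9 probe set, against 3.01%, 1.30%, 5.60% and 2.60% of all tested. Without the filter 0 of all 35, here with SOX13 209736_at, were called in any comparison by limma. For both siRNAs 4 of the 35 had an unadjusted p below 0.05 without the filter, 1 of them SOX13 209736_at, with its dim control arrays. Of all probe sets, 27307 that passed the filter and 27306 that did not, 3190 had such a p in that fit. All 4 siRNA arrays were below both controls in 3 of the 13 probe sets and above in 1, where 10.9% and 4.75% of all tested probe sets did so. After median centring those shares of all were 8.43% and 9.65%, and the SOX counts were 2 and 1. The median log2 fold change was -0.22 over the 13 and -0.03 over all tested, and -0.18 with SOX13 209736_at put back. Several of the 13 read the same gene, so this median does not describe the family gene by gene. It is the value of SOX4 201418_s_at, which was 0.16 without replicate 2 of both SOX9 siRNAs.

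The other SOX genes were examined as a list of 9, each read by its brightest probe set. Of the 9, 2 were tested and 0 were called. SOX7, a group F factor of endothelium, read 342 and 191.4 with control, 177 and 149 with siRNA A and 157.5 and 179 with siRNA B; the mean log2 difference was -0.59 (limma adjusted p = 0.707). SOX1, a neural group B factor, read 79.9 and 99.2, 77.8 and 53.2, and 68.8 and 28.7 in the same order, with -0.58 (limma adjusted p = 0.737). In both the 4 siRNA arrays lay below the 2 controls, as they did in 10.9% of all tested probe sets. For SOX7 the margin was narrow, with 179 in replicate 2 of siRNA B against 191.4 in control replicate 2.

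Among 37 partners, regulators and modifiers of SOX proteins, 31 had a probe set, 23 were tested and 0 were called in either direction. SALL4, a stem cell zinc finger factor, read 100.1 and 97.5 with control, 34.7 and 27.1 with siRNA A and 38.3 and 26.6 with siRNA B. The groups were far apart, and the log2 fold change was -1.28 (SE 0.24, limma adjusted p = 0.206, and 3.64e-05 with the replicate block). TCF7L2 was at -0.81 (limma adjusted p = 0.684, and 0.0293 with the block), PRKACA, a protein kinase A subunit, at 0.60 and LEF1, a TCF-family factor, at -0.33. With the block 2 of the 23 were called, both lower, where 3.01% of all tested probe sets were called in that fit. The median log2 fold change was -0.12, against -0.04 over all genes.

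Of 20 cartilage genes regulated by SOX9 with SOX5 and SOX6, 13 were tested, 0 were called and 8 had negative values, with a median of -0.17. COL27A1, a fibrillar collagen, read 102 and 120.1 with control, 76.1 and 20.0 with siRNA A and 85.7 and 26.0 with siRNA B. The log2 difference was -1.05 (limma adjusted p = 0.636, and 0.000958 with the block), with the low arrays again replicate 2. RUNX2, the bone-forming transcription factor, had -0.69, COL9A2, a collagen IX chain, 0.49 and MATN4, a matrilin, -0.47, none called. Of 20 genes linked to SOX9 in epithelia and prostate, 13 were tested and 0 were called, with a median of -0.08. SHH, the Hedgehog ligand, read 90.7 and 86.8 with control, 191 and 506 with siRNA A and 106 and 729 with siRNA B. Its log2 fold change was 1.59 (SE 0.52, limma adjusted p = 0.623, and 1.64e-08 with the block), and the highest arrays were replicate 2. The block took its spread from the intensity trend and not from the arrays of each gene. Its p-values for SHH, COL27A1 and the other listed genes can therefore be too small. JAG1, a NOTCH ligand, had 0.53, RORA, a nuclear receptor, -0.55 and HES1, a NOTCH target repressor, -0.39.

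The 5 genes whose profile over the 6 arrays was closest to that of SOX9 were LYRM7, HOMER2, ADA, CEP68 and EPB41L4A-AS1. Closeness was the root mean square difference of log2 values, each minus its control mean, from the mean of the 2 SOX9 probe sets. It was taken among 12430 genes, each read by its closest tested probe set. It was 0.15 for LYRM7, a mitochondrial complex III assembly factor, 0.18 for HOMER2, a synaptic scaffold protein, 0.18 for ADA, adenosine deaminase, 0.19 for CEP68, a centrosomal protein, and 0.20 for the noncoding RNA EPB41L4A-AS1. The median over all genes was 1.05. The 2 SOX9 probe sets differed from each other by 0.28. That value is not a difference from their mean and cannot be set beside those of the genes. LYRM7 read 976 and 1073.5 with control, 679 and 455 with siRNA A and 426.5 and 235 with siRNA B. HOMER2 read 899 and 738 with control, 469.5 and 324 with siRNA A and 330.0 and 210.0 with siRNA B. These genes were chosen by their likeness, so no test is given.

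**Figure D5:**
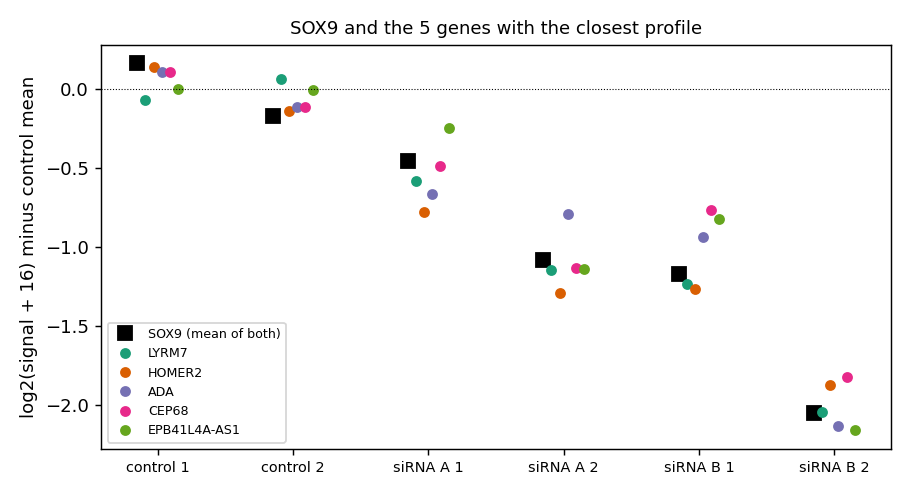
Log2(signal + 16) minus the control mean in each of the 6 arrays for SOX9 (squares, mean of both probe sets) and the 5 genes with the closest profile (circles). SOX9 runs from 0.17 and -0.17 in the controls to -2.05 in replicate 2 of siRNA B, and the 5 genes were chosen to lie near it.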

How the data were processed

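Total RNA (6 ug per sample) from 6 VCaP samples was hybridised to Affymetrix U133 Plus 2.0 arrays, per the labels' protocols. Each probe set has 1 deposited intensity, on a linear scale, and MAS5 is the tool in the submitters' processing notes. No version or scaling target is given in the sources used here, and the authors' scaling was kept. The array's own controls (62 probe sets) were dropped. In the annotation, 41091 of the others had 1 symbol, 1801 several and 11721 none. All 10 member symbols were found in RefSeq (GRCh38.p14).

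Signals were taken as log2(signal + 16) and fitted with limma 3.58.1 in R 4.3.3 (lmFit on 3 groups over 6 arrays, eBayes with an intensity trend, 3 residual degrees of freedom), two-sided, with Benjamini-Hochberg adjustment over 27307 probe sets and a threshold of 0.05. The script was tested on simulated data. The labels do not say whether the 2 arrays of a group came from separate cultures beyond calling them biological duplicates. The p-values of the main fit therefore measure the spread between these arrays. Those of the replicate block rest on limma's intensity trend for the spread.

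Same-numbered arrays deviated together between the siRNAs (correlation of replicate differences 0.59). With control they did so only weakly, at 0.15 for siRNA A and 0.15 for siRNA B. The block fits 1 replicate term to all 3 groups and is given where it changes a call. That term does not describe a replicate difference seen with the siRNAs and not with control, as in SOX4. The pairing by number comes from the data, not from the labels.

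All member probe sets were described. Genes of each list were named by smallest p (up to 4), and genes like SOX9 by the smallest root mean square difference (5). Members, lists and tests were chosen with earlier results of these data known. The motifs, and the rule on replicate 2, were chosen after the values were seen.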

Additional observations from a re-analysis of the deposited data

How the results depend on the processing

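The alternatives were other log offsets, scalings between arrays, filters, ways to represent a gene, eBayes settings, groups in the fit, the replicate block, each array left out, and another threshold. SOX9 stayed negative under every one for both siRNAs (22 alternatives for 202935_s_at, from -1.41 to -0.64, 4 called; 20 for 202936_s_at, from -1.72 to -0.99, 4 called). SOX12 204432_at stayed negative and was not called.

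Calls of SOX9 appeared with the replicate block, alone and with median centring. For both siRNAs these were -1.02 and -0.98 in 202935_s_at and -1.36 and -1.31 in 202936_s_at. For siRNA B they were -1.48 and -1.45, and -1.74 and -1.72. For siRNA A 202936_s_at was called with the block alone (-0.97). For siRNA A against siRNA B the values were 0.91 and 0.94 in the first, and 0.80 with centring in the second. With siRNA B, 202936_s_at (-1.74) was also called under the stricter filter and robust eBayes, and without replicate 1 of both SOX9 siRNAs both probe sets were called (-1.41 and -1.72). Leaving out 1 array gave SOX9 values from -1.23 to -0.81 and from -1.59 to -1.12 for both siRNAs, from -0.92 to -0.21 and -1.24 to -0.70 for siRNA A, from -1.90 to -1.06 and -2.20 to -1.28 for siRNA B, and from 0.49 to 1.33 and 0.31 to 1.24 between them.

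Called SOX probe sets, 0 in each comparison, became 3, 2, 3 and 1 with the block and 3, 0, 3 and 2 with centring added, for both siRNAs, siRNA A, siRNA B and siRNA A against siRNA B. SOX13 209736_at is 1 of these for both siRNAs, for siRNA A with the block alone and for siRNA B. Its control arrays were under the filter level, and it passed the filter only through the siRNA arrays. Its place in these counts is therefore not read as a test result. With SOX13 209736_at left out, the block alone called 2, 1, 2 and 1, each a SOX9 probe set. Of all tested probe sets it called 3.01%, 1.30%, 5.60% and 2.60%. With centring added and SOX13 209736_at left out, siRNA A had 0 calls. In each of the other comparisons the calls were the 2 SOX9 probe sets. That setting called 633, 122, 1641 and 812 of all probe sets, in the same order of comparisons. Without replicate 1 of both siRNAs 2 were called, the SOX9 probe sets, where 950 of all probe sets were called. For siRNA B 1 was called with the stricter filter, robust eBayes or a threshold of 0.10. The counts over all probe sets under these settings, given below, rose as well.

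Signs turned without replicate 2 of both SOX9 siRNAs for SOX4 (0.034, 0.016, 0.13 and 0.16 in 201417_at, 201416_at, 213668_s_at and 201418_s_at) and SOX6 228214_at (-0.093), and without replicate 1 of both for SOX6 235526_at (0.13) and 227498_at (0.023), SOX13 38918_at (0.0090) and SOX15 (0.19). The median over probe sets put SOX13 at 0.92. Its control readings there were those of 209736_at, 7.0 and 19.9, both under the filter level. Leaving out 1 array gave -0.22 to 0.25 for SOX6 228214_at, -0.30 to 0.11 for 235526_at, -0.14 to 0.0095 for 227498_at, -0.30 to 0.013 for SOX13 38918_at and -0.42 to 0.18 for SOX15.

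Over all probe sets, 1, 2, 17 and 13 were called in the 4 comparisons. Quantile normalization, median centring, a common trimmed mean and no filter each gave 0 in all 4, in limma with 1181 to 4067 at an unadjusted p below 0.05. The block gave 821, 356, 1528 and 709, and 633, 122, 1641 and 812 with centring. For both siRNAs the count was 7 with the stricter filter, 5 with 1 probe set or the median per gene, 4 with an offset of 64, 5 at a threshold of 0.10, 950 without replicate 1 of both siRNAs, and 0 with the siRNA arrays as 1 group or without replicate 2 of both (1520 and 1198 at an unadjusted p below 0.05). For siRNA A it was 1 with an offset of 1, the median per gene or no trend. For siRNA B it was 45 with the stricter filter, 0 without a trend (2715 at an unadjusted p below 0.05), 35 with robust eBayes, 9 with only the compared groups and 38 at 0.10. For siRNA A against siRNA B it was 6 with an offset of 1, 22 with the stricter filter, 4 with the median per gene or no trend, 31 with robust eBayes, 41 with only the compared groups and 40 at 0.10. Leaving out 1 array gave 0 to 165, 0 to 8, 0 to 2080 and 0 to 575. The causes were not tested.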

Other observations

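SOX9-AS1, the RNA transcribed beside SOX9, was read by 2 probe sets that are no members of the set above. Probe set 230419_at read 10.6 and 5.80 with control, 16.4 and 1.80 with siRNA A and 6.90 and 1.10 with siRNA B. Probe set 1564466_at read from 0.90 to 9.40. Both were below the filter level of 22.0 in every array, and replicate 2 was the lower array of each group in the first.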
